A study of Oryza sativa with 3 samples.

Results

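Read-poor bins are stretches of 10 kb of the rice genome in which very few uniquely mapped reads of mono-nucleosomal DNA were found. Each chromosome was divided into fixed bins of 10 kb, the last, incomplete bin of each chromosome was left out, and bins were selected on their number of single-end reads. A bin was called read-poor where it held fewer than 157 of them, which was the case in 1865 of 37200 bins, or 5.01%. The bins they were compared with, called comparison bins here, were the 10939 bins that held 650 to 850 reads, around the median of 738 reads over all bins. Both classes were thus chosen by the single-end reads, whose number is given below only to describe them.

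All data came from leaf tissue of 2-week-old seedlings of the cultivar Nipponbare, whose nuclei were digested with micrococcal nuclease (MNase), and mono-nucleosomal DNA was isolated from a gel. Single-end reads of 36 bp came from the first biological replicate, whose 2 technical replicates were deposited together with no mark that separates them, and numbered 26516807. From read pairs of the second biological replicate the authors made 3456855 nucleosome calls with nucleR, each with a score. The paper reports far more uniquely placed read pairs for this library than single-end reads for the first. The 2 libraries shared cultivar, tissue, stage and enzyme, and no undigested DNA was analysed here. With 1 biological replicate in each form, no replicate error and no test were possible. Spreads given below are SDs over bins or over the 12 chromosomes of these libraries, and bins beside each other are not independent.

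MNase cuts the linker DNA between nucleosomes and leaves the DNA wrapped around the histone core, so that the 5' end of a read marks the edge of a nucleosome. A short read can be placed only where its sequence occurs at a single position of the assembled genome, and the authors kept only such reads. The rice genome is known to hold satellite repeats, ribosomal RNA genes, retrotransposons, segmental duplications and copies of organelle DNA, in which short sequences occur at many positions. The number of reads in a bin thus depends both on nucleosomes and on how much of the bin can be read uniquely. No genome sequence of the build used by the authors (TIGR release 5) was used here, so the repeat content of the bins was not tested.

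The read-poor bins held 148445 reads, which was 0.560% of the single-end reads, and 161925 calls of the other library, which was 4.68% of the calls. The median read-poor bin held 79 reads (quartiles 44 and 116) and the median comparison bin 753 (quartiles 703 and 802). The number of bins and their calls and scores changed little across the upper limit of the class. In the 10 read numbers just inside it, from 147 upward, there were 125 bins, and in the 10 just outside it, 157 to 166, there were 116. The bins just inside had 87.7 ± 15.6 calls and a mean score of 0.488, and those just outside had 88.3 ± 16.7 calls and a mean score of 0.485 (SD over bins). At the low end, 15 bins on 8 chromosomes held no read at all, of which 6 lay on chromosome 1. A count of 0 allows up to 3 reads per bin, from counting error only.

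**Figure D1:**
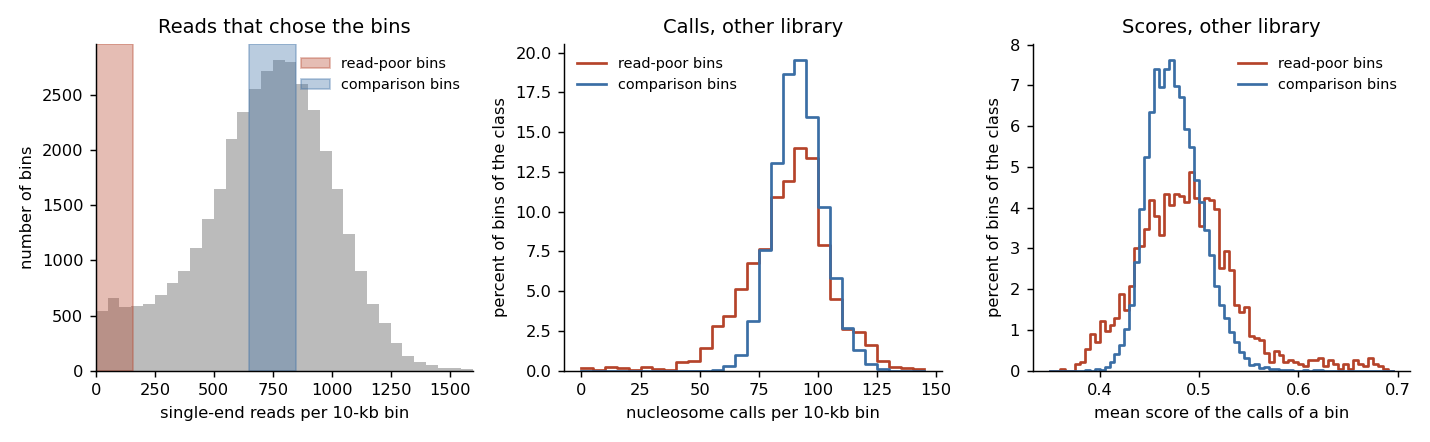
Left, histogram of the 37200 bins by single-end reads per 10-kb bin, with the read-poor class (fewer than 157 reads) and the comparison class (650 to 850 reads) shaded. Middle and right, percent of the bins of each class by nucleosome calls per bin and by the mean score of the calls of a bin, both from the other library. The curves of the 2 classes overlap over most of their range, and the read-poor curve is broader in both panels (SD of 17.8 against 10.3 calls).

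Every chromosome had read-poor bins. Their share was lowest on chromosome 3, where 71 bins or 1.95% were read-poor, and highest on chromosome 6, where 216 bins or 6.91% were. Chromosome 4 had the largest number, 229. The median number of reads in the read-poor bins of a chromosome lay between 67 and 88.

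To describe the location of read-poor bins along the chromosomes, each chromosome was divided into 20 equal parts. Pooled over the 12 chromosomes, the share of read-poor bins was highest at 35% to 40% of the length (9.58%) and at 30% to 35% (9.03%), and lowest at 85% to 90% (2.69%). The pooled share was above the 5.01% of all bins from 20% to 50% of the length, at 60% to 65% and in the first 5%, and the part with the highest share differed between chromosomes. Chromosome 5 had 26.2% read-poor bins at 35% to 40% of its length, chromosome 6 had 23.7% at 55% to 60%, chromosome 8 had 23.2% at 20% to 25%, and chromosome 4 had 20.5% at 40% to 45%. Chromosomes 9 and 11 had their highest shares in the first 5% (16.5%) and in the last 5% (10.6%) of the length. The median distance of a read-poor bin from the nearer chromosome end was 29.0% of the chromosome length, and between 15.6% on chromosome 11 and 36.8% on chromosome 3 (SD over chromosomes 6.21). The median for comparison bins was 24.7%. Centromere positions in the coordinates of the files were not used, so bins were not assigned to arms.

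**Figure D2:**
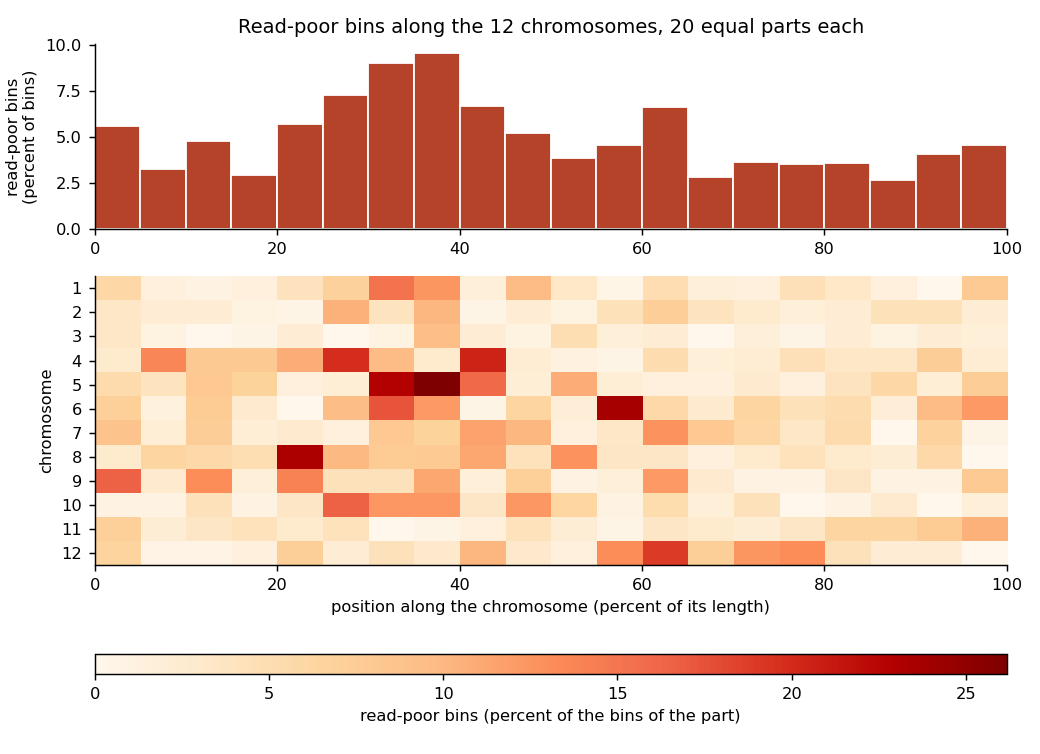
Percent of 10-kb bins that were read-poor in 20 equal parts of the chromosomes, pooled (upper panel, bars) and for each of the 12 chromosomes (lower panel, colour scale), against the position in percent of chromosome length. The pooled share is highest at 35% to 40% (9.58%), and the darkest parts lie in the interior of chromosomes 4, 5, 6, 8 and 12.

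Read-poor bins were also frequent within the last 100 kb of a chromosome end, where 42 of 240 bins (17.5%) were read-poor, against 3.75% to 5.85% in 6 classes of larger distance. This share rested on few ends. Of the 24 chromosome ends, 16 had no read-poor bin within 100 kb, and 31 of the 42 bins lay at 4 ends. These were the start of chromosome 11 with 9 of its 10 bins, the start of chromosome 12 with 8, the end of chromosome 5 with 8 and the end of chromosome 9 with 6. The starts of chromosomes 11 and 12 are known to carry a duplicated segment of the rice genome. At the other 20 ends 11 of 200 bins were read-poor, or 5.50%. The 4 ends were set apart for their high counts, so the share at the others is lower by this choice.

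Read-poor bins lay beside each other far more often than bins in general lay beside a read-poor bin. Of the 1865 read-poor bins, 1096 (58.8%) had a read-poor bin next to them, compared with 8.53% of all bins. The share was 28.2% on chromosome 3 and 69.0% on chromosome 6, and 52.9% or more on the 11 chromosomes other than chromosome 3. Joining adjacent read-poor bins gave 1079 stretches. Most of these, 769, were single bins, and they held 41.2% of the read-poor bins. At the other extreme, 64 stretches of 5 or more bins (50 kb or longer) held 500 bins, or 26.8%. On a larger scale, 10 of the 366 complete windows of 1 Mb had 20 or more read-poor bins and held 276 of them together, whereas 46 windows had none and the median window had 3. The windows with the most were 15 to 16 Mb on chromosome 1 and 18 to 19 Mb on chromosome 6 with 37 of 100 bins each, and 14 to 15 Mb on chromosome 4 with 32.

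Bins next to a read-poor stretch hold 157 or more reads by the rule, so part of the step in reads at its border is fixed by the choice of bins, and the reads are given as a description. Bins 10 kb away from the nearest read-poor bin held a median of 525 reads, and bins 20 kb away held 713. From 30 kb outward the median lay between 735.5 and 782 reads up to 200 kb. The calls of the other library followed the same course on a much smaller scale. They averaged 86.8 ± 17.8 in read-poor bins, 91.6 ± 12.8 at 10 kb and 93.6 ± 12.04 at 20 kb (SD over bins). The steps were smaller than the SD over bins.

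**Figure D3:**
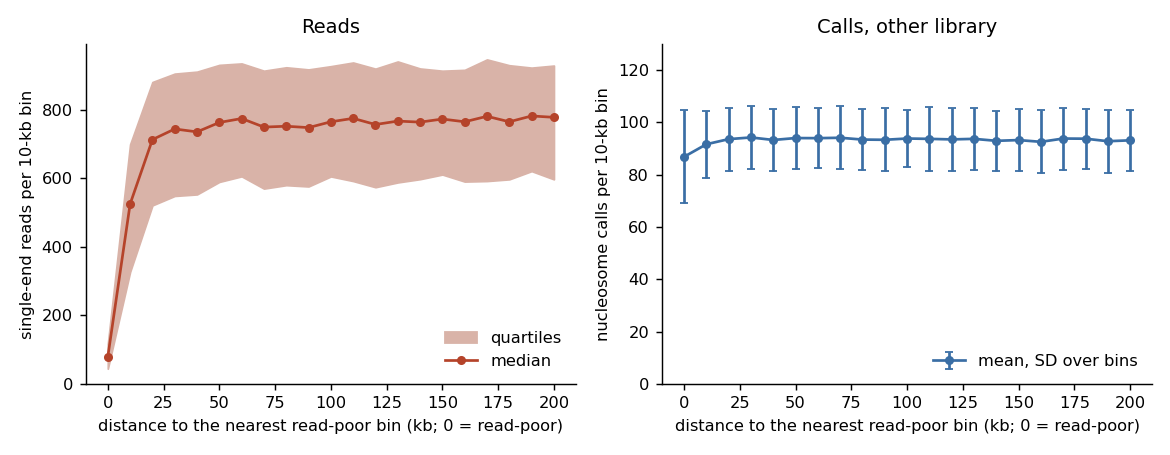
Left, single-end reads per 10-kb bin (median as points, quartiles as band) against the distance to the nearest read-poor bin in kb, where 0 stands for the read-poor bins themselves. Right, nucleosome calls per bin of the other library (mean, with SD over bins as bars) on the same axis. The median reads reach 713 at 20 kb, whereas the mean calls range only from 86.8 to 94.2.

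The longest stretch of read-poor bins spanned 36 bins, or 360 kb, on chromosome 1 from 14980000 to 15339999. It was nearly empty in the single-end library, with 5 bins without a read, a median of 2 reads per bin and a highest value of 121. The paired-end library, which the choice of bins did not use, was also sparse there. Calls per bin ranged from 2 to 96 with a median of 43.5 and a mean of 43.2 ± 25.2, and 22 of the 36 bins had fewer calls than any comparison bin. The sparsest part lay between 80 and 190 kb from the start of the stretch, where no bin had more than 26 calls, and the longest part of a bin without a call was 9127 bp. The calls that were present also scored low, with a mean of 0.440 per bin.

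The second and the third longest stretches were different. A stretch of 15 bins on chromosome 6, from 30600000 to 30749999 near the end of the chromosome, had 4 to 102 reads per bin (median 30) and 55 to 111 calls per bin (median 83), with a mean score of 0.520. A stretch of the same length on chromosome 7, from 12120000 to 12269999, had 0 to 91 reads per bin (median 18). Its bins held 95 to 122 calls, with a median of 115 and a mean of 115 ± 6.26, more than the 91.4 ± 10.3 of the comparison bins. Both of its bins without a read held over 100 calls, 114 and 115. Adjacent calls were closely packed in this stretch, and 94.8% of them had centres less than 120 bp apart, the length of a call.

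**Figure D4:**
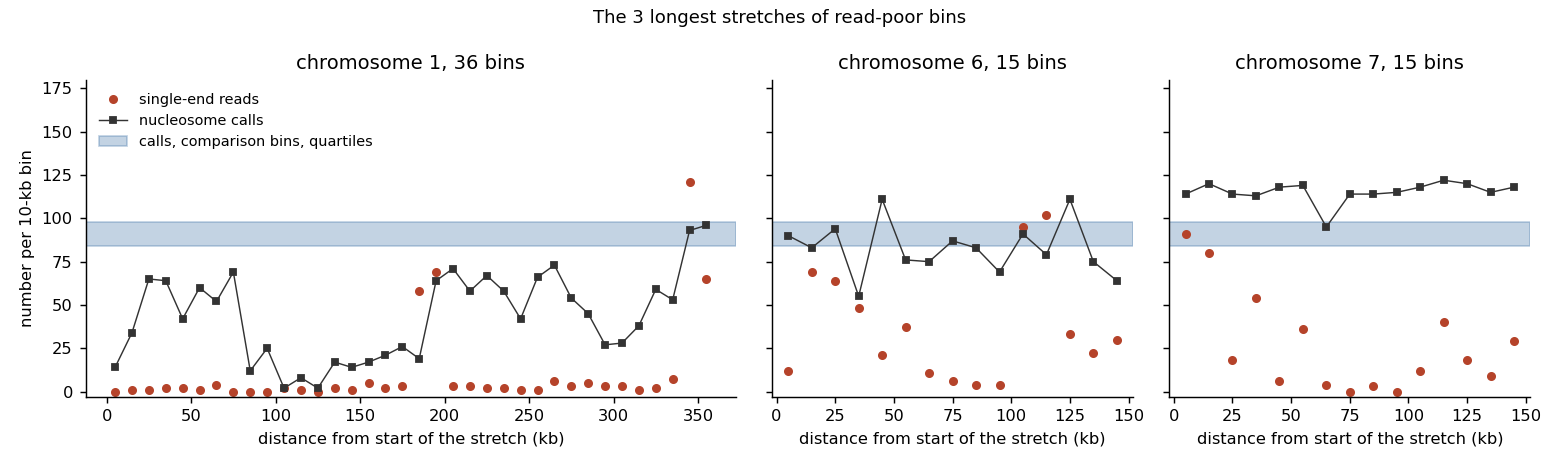
Single-end reads (red points) and nucleosome calls of the other library (black squares) per 10-kb bin along the 3 longest stretches of read-poor bins, against the distance from the start of the stretch in kb. The blue band gives the quartiles of the calls of comparison bins (84 and 98). Calls lie below the band in most bins of the stretch on chromosome 1 and above it in 14 of 15 bins of the stretch on chromosome 7.

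The longest stretches on the other 9 chromosomes were 6 to 13 bins long, and all of them had mean numbers of calls near those of comparison bins, between 85.2 on chromosome 3 and 98.9 on chromosome 4. They differed mostly in their scores. The stretch of 13 bins on chromosome 4, from 9070000 to 9199999, had 18 to 131 reads per bin (median 32) and 98.9 ± 5.31 calls per bin with a mean score of 0.656. Of its calls, 46.0% belonged to the 10% of all calls with the highest score. The stretch of 13 bins on chromosome 10, from 10460000 to 10589999, had 43 to 108 reads per bin (median 79) and 97.8 ± 5.54 calls per bin with a mean score of 0.642. In it, 22.7% of the calls belonged to the highest-scoring 10%. Mean scores per bin of both stretches thus lay far above the 0.476 ± 0.0266 of the comparison bins. Other stretches had few calls at either end of the score range. The 8 bins on chromosome 9 from 14260000 to 14339999 had 0.129% of their calls in the highest-scoring and 0.257% in the lowest-scoring 10%, and their mean scores lay between 0.445 and 0.464. The 11 bins on chromosome 2 from 23270000 to 23379999 had 2.37% and 1.98% in these classes. Comparison bins of these chromosomes also varied least in mean score, with SDs over bins of 0.00997 on chromosome 9 and 0.0151 on chromosome 2. On the other chromosomes this SD lay between 0.0207 and 0.0274.

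Over all read-poor bins, the number of nucleosome calls was close to that of comparison bins although the bins had far fewer single-end reads. The calls came from the other, much deeper library, whose read pairs per bin were not counted here. Read-poor bins had 86.8 ± 17.8 calls (median 88, range 2 to 147) and comparison bins 91.4 ± 10.3 (median 91, range 56 to 145; SD over bins). The ratio of the means was 0.950, and on single chromosomes it lay between 0.854 on chromosome 1 and 0.991 on chromosome 10 (SD over chromosomes 0.0419). The mean was lower in read-poor bins on 12 of 12 chromosomes, by less than the SD over read-poor bins on each. Without the stretch of 360 kb on chromosome 1 the ratio was 0.960. Calls numbered 109 per 100 single-end reads in read-poor bins and 12.2 in comparison bins, a contrast largely fixed by the choice of bins on these reads. No read-poor bin lacked a call, and none of all 37200 bins did.

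The spread of the calls between bins was larger in read-poor bins on 12 of 12 chromosomes. Fewer than 56 calls, the lowest number of any comparison bin, were found in 77 read-poor bins (4.13%), compared with 0.298% of all bins. These 77 bins lay on all 12 chromosomes, 26 of them on chromosome 1 and 22 of these in its longest stretch. Below the 5th percentile of the comparison bins (75 calls) lay 21.8% of the read-poor bins, compared with 6.95% of all bins. Above the 95th percentile (109 calls) lay 7.83% of the read-poor bins, compared with 8.01% of all bins, so that the share at the upper side was near that of bins in general. The bins with the fewest calls were 2 bins with 2 calls each on chromosome 1, starting at 15080000 and 15100000, with 2 reads and no read. A bin on chromosome 6 from 22880000 to 22889999 had 9 reads and 4 calls, and 9658 bp of it were free of calls. The bins with the most calls were the bin from 50000 to 59999 on chromosome 6, with 43 reads and 147 calls, and the bin from 12490000 to 12499999 on chromosome 5, with 32 reads and 146 calls.

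Calls covered less of the read-poor bins than of comparison bins and left longer gaps. They covered 73.5% ± 13.2 of the bases of a read-poor bin and 79.04% ± 6.75 of a comparison bin (SD over bins). The longest part of a bin without a call had a median of 770 bp in read-poor bins and 463 bp in comparison bins, and 95th percentiles of 1774 and 1075 bp. At the same time, 78.96% of the calls in read-poor bins overlapped the next call, against 74.7% in comparison bins.

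The number of reads that a read-poor bin held said little about its calls, except near 0 reads. Bins without a read had a median of 69 calls (2 to 115), and 7 of these 15 had at least the 75 calls of the 5th percentile of comparison bins. Bins with 1 to 9 reads had a median of 79 calls, bins with 10 to 29 reads 92, bins with 30 to 59 reads 89 and bins from 120 reads up to the limit 89.5. Across the read-poor bins, Spearman's rho between reads and calls was 0.0304 (n = 1865), and it was 0.147 across the comparison bins (n = 10939) and 0.370 across all bins (n = 37200). Bins are not independent, and these values describe them only. On single chromosomes, rho in read-poor bins lay between -0.285 on chromosome 7 and 0.391 on chromosome 1, the chromosomes of 2 of the longest stretches. Bins that stood alone had 84.5 ± 16.6 calls, bins in stretches of 5 to 9 bins had 91.7 ± 17.4, and bins in stretches of 10 or more had 84.1 ± 27.3, the 36 bins of chromosome 1 included.

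The nucleR score of a call had a median of 0.477 in read-poor bins (quartiles 0.378 and 0.606) and 0.458 in comparison bins (quartiles 0.361 and 0.588). How the score is scaled was not stated in the sources used here, and it was compared only within the list of calls. The sizes of its means, SDs and differences depend on this unknown scale. The difference of 0.0188 was positive on 12 of 12 chromosomes, from 0.000330 on chromosome 3 to 0.0475 on chromosome 10 (SD over chromosomes 0.0142), but it was small beside the spread of the calls. It was 0.0162 without the stretches of chromosomes 4 and 10 described above, and 0.00850 against all bins of 157 reads or more. The direction depended on which calls were counted. Among calls that overlapped no other call, the median was lower in read-poor bins, at 0.497 (11073 calls) against 0.532 in comparison bins (92583 calls), a difference of -0.0347.

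Scores differed more in their spread between bins than in their level. The mean score per bin was 0.487 ± 0.0497 in read-poor bins and 0.476 ± 0.0266 in comparison bins, and the SD was larger in read-poor bins on 12 of 12 chromosomes. Mean scores above the 95th percentile of comparison bins (0.523) were found in 351 read-poor bins (18.8%), compared with 11.2% of all bins. Mean scores below the 5th percentile (0.437) were found in 257 (13.8%), compared with 5.98% of all bins. Mean scores above any comparison bin (0.621) were found in 41 read-poor bins (2.20%) of 10 chromosomes, compared with 0.194% of all bins, and 23 of the 41 lay in the stretches of chromosomes 4 and 10 described above. Others lay in small groups, such as 3 bins on chromosome 6 between 15430000 and 15479999 with 121 to 129 calls each, 3 adjacent bins on chromosome 8 from 9240000 to 9269999, and adjacent pairs on chromosomes 1, 6 and 10. In read-poor bins, rho between calls and mean score was 0.377, whereas it was -0.0519 in comparison bins and 0.197 over all bins, given as a description. Bins with many calls thus tended to have higher mean scores in the read-poor class, and more weakly over all bins.

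Within a read-poor bin, the reads were gathered in small patches. Of the 500-bp windows of read-poor bins, 41.1% held no read, against 0.962% in comparison bins. Fewer reads alone leave more empty windows, so the reads of the comparison bins were also thinned at random to the read numbers of read-poor bins, a step added after the data were seen. Random thinning drops each read independently, so it also breaks up stacks of reads and repeated reads. It uses the reads that chose the bins, its values are a description, and the cause of the patches was not tested. After thinning, 17.3% of the windows of comparison bins were empty. The fullest window of a read-poor bin held a median of 23.5% of its reads, against 12.9% in thinned and 10.52% in unthinned comparison bins. This share was taken over bins with 20 reads or more, which were 1663 read-poor, 9776 thinned and all 10939 unthinned comparison bins. The longest part of a bin without a read had a median of 2116 bp, against 1013 bp in thinned and 316 bp in unthinned comparison bins.

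Patches were defined as runs of bases covered by overlapping 36-bp reads. In read-poor bins 60.6% of the reads lay in patches of 5 or more reads, against 13.1% in thinned and 92.5% in unthinned comparison bins. Reads that overlapped no other read made up 8.54%, against 39.6% and 1.40%. The patches were short, with a median of 45 bp, and 95% of them were at most 99 bp long. Nevertheless, 73.1% of the reads lay in patches with reads of both strands, against 37.2% in thinned and 94.0% in unthinned comparison bins. All patches together covered 11.3% ± 5.75 of the bases of a read-poor bin, against 22.1% ± 10.6 in thinned and 76.3% ± 6.63 in unthinned comparison bins. The covered bases of a read-poor bin were thus fewer, and each carried more reads, than in a bin of ordinary depth thinned to the same number of reads. Reads at a position and strand already taken by another made up 14.5% of the reads in read-poor bins and 13.9% in comparison bins (SD over chromosomes 0.773 and 0.161), and 2.32% after thinning. Thinning lowers this share by itself, since it rarely keeps a read together with its repeat. Over all bins the share of repeated reads was 14.5%, the same as in read-poor bins to this precision. The difference between the unthinned classes was smaller than the SD over chromosomes in read-poor bins, and with a limit of 78 reads the share was 13.7% in read-poor bins, below that of comparison bins. Over bins with 20 reads or more, the mean share of forward reads was 50.04% in read-poor and 49.99% in comparison bins. Its SD over these bins was 7.83 percentage points in read-poor bins, 6.02 in thinned and 2.06 in unthinned comparison bins.

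The calls of the paired-end library were also found where the single-end library had no reads. In windows of read-poor bins without a read (15340 windows), calls numbered 8.05 per kb, in windows with 1 to 4 reads 8.24, in windows with 5 to 14 reads 9.96, and in windows with 15 to 29 reads 10.4. They numbered 10.3 per kb in windows with 30 or more reads. Comparison bins had few windows without a read (2104), and their calls numbered 6.29 per kb. Windows with 1 to 4 reads had 4.81 calls per kb there, windows with 5 to 14 reads 6.06, windows with 15 to 29 reads 8.06 and windows with 30 or more 10.3. A call was missing from 12.95% of the read-free windows of read-poor bins and from 26.0% of those of comparison bins. At equal, low read numbers, windows thus held more calls in read-poor bins than in comparison bins, whereas at 30 or more reads the classes were alike. The windows were grouped by the reads that chose the bins, and read-free windows were common in read-poor and rare in comparison bins. The contrast is therefore a description only. The mean score of calls in read-free windows was 0.494 in read-poor bins and 0.495 in comparison bins.

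To see how single calls were covered, the 5' end of each read was moved 73 bp inward, and reads that then fell at most 20 bp from the centre of the call were counted. No such read was found for 81.5% of the calls in read-poor bins and for 11.3% in comparison bins, compared with 19.0% of all calls. This measure used the reads that chose the bins. Relative to the mean read density of their class of bins, however, reads were enriched at calls to a like extent, 1.49-fold in read-poor and 1.46-fold in comparison bins. At the 10% of calls with the highest score the enrichment was 2.75-fold in read-poor and 3.12-fold in comparison bins, and at the 10% with the lowest score 0.799-fold and 0.663-fold. The remaining reads of read-poor bins thus lay at calls of the other library more often than the mean density of the class gives. Reads and calls both varied between and within bins, which this mean density does not take into account. The contrast between high-scoring and low-scoring calls was smaller than in comparison bins.

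The protected length of the remaining reads was measured as the most frequent distance from a forward to a reverse 5' end for lengths of 80 to 300 bp, with both ends in the same stretch of bins and both end bases counted in the length, so that it is 1 bp more than the distance. It was 150 bp in read-poor bins and 148 bp in comparison bins. The counts behind it were very different, with 483 pairs per bp of distance at 400 to 900 bp in read-poor bins and 163999 in comparison bins. On single chromosomes the length ranged from 113 to 163 bp in read-poor bins (SD 12.8) and from 147 to 149 bp in comparison bins (SD 0.515). It was longer on 8 chromosomes, shorter on 3 and the same on 1, so that a difference in protected length was not detectable at this depth. With repeated reads counted once, it was 147 bp in read-poor bins and 148 bp in comparison bins. At the maximum, pairs were 2.93 times as frequent as at 400 to 900 bp in read-poor bins and 1.94 times in comparison bins. Compared with 200 to 300 bp, the ratios were 1.93 and 1.70.

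A higher maximum was found in read-poor bins at distances shorter than a nucleosome. Pairs at 20 to 39 bp were 7.37 times as frequent as at 400 to 900 bp in read-poor bins, and 1.23 times in comparison bins. The maximum lay at 26 bp, where the ratio was 8.77. At 35 bp, where a forward and a reverse read cover the same 36 bases, the ratio was 7.57 in read-poor bins and 1.27 in comparison bins. The ratio at 20 to 39 bp lay between 6.24 and 9.79 on the 12 chromosomes in read-poor bins and between 1.21 and 1.27 in comparison bins, so that the ranges were far apart. These short distances lie within the short patches described above, and both measures come from the reads that chose the bins.

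**Figure D5:**
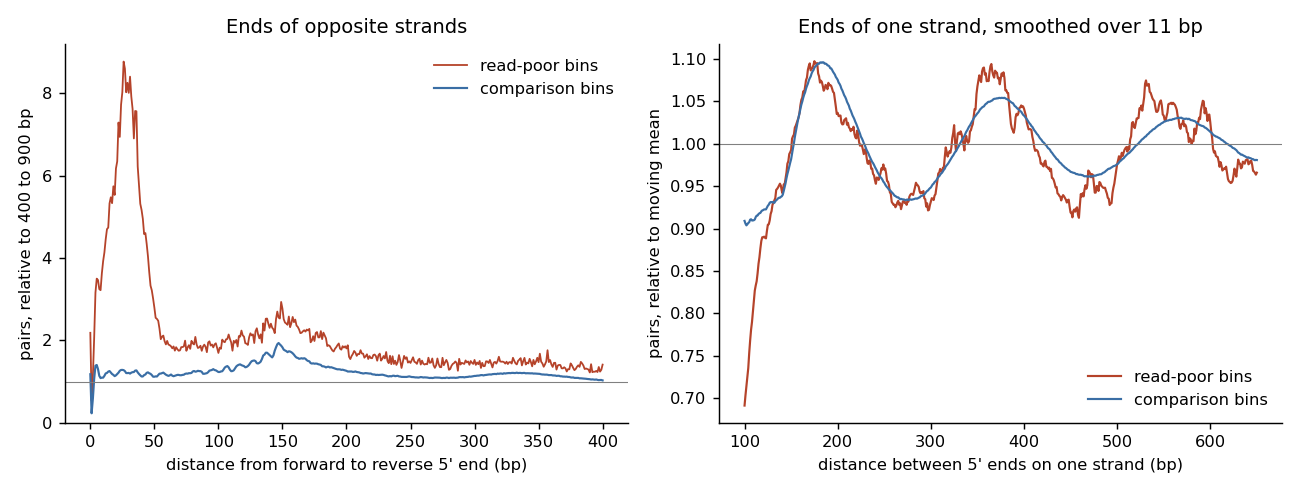
Left, number of pairs by distance from a forward to a reverse 5' end (bp), relative to the mean at 400 to 900 bp. Right, number of pairs by distance between 5' ends on the same strand (bp), smoothed over 11 bp and divided by a 201-bp moving mean. Read-poor bins (red) show a maximum of 8.77 at 26 bp and one of 2.93 at the distance of a length of 150 bp, comparison bins (blue) one of 1.94 at that of 148 bp, and both classes oscillate in the right panel, with first maxima at 175 and 184 bp.

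The spacing of nucleosomes was read from the distances between ends on the same strand, as their first maximum beyond 120 bp. It was 170 bp in read-poor bins and 179 bp in comparison bins. The further maxima lay at 356 and 531 bp in read-poor bins and at 373 and 565 bp in comparison bins, so that 3 maxima were found in both classes. Spacing ranged from 157 to 185 bp over the chromosomes in read-poor bins (SD 8.13) and from 175 to 185 bp in comparison bins (SD 3.57). It was shorter in read-poor bins on 11 of 12 chromosomes, and chromosome 2 was the exception with 185 bp against 182 bp. Division by a 201-bp moving mean, which removes the fall of the counts with distance, gave 175 and 184 bp and the same count of 11 of 12. The difference was about the size of the SD over chromosomes in read-poor bins.

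The calls of the other library gave a difference of the same direction. Adjacent calls with centres 120 to 250 bp apart had a median distance of 155 bp in read-poor bins and 160 bp in comparison bins, and the distance was shorter in read-poor bins on 12 of 12 chromosomes (SD over chromosomes 1.57 and 0.515). The size of this distance depends on which calls are used. It was 167 and 169 bp among calls that overlapped no other call, and 172 and 175 bp among calls in the upper 50% of scores. Over all adjacent calls, the median distance was 80 bp in read-poor bins and 84 bp in comparison bins. Distances under 120 bp, where calls overlap, made up 79.1% in read-poor and 74.8% in comparison bins. Distances over 500 bp made up 2.04% and 1.05%. The calls of read-poor bins thus included more close neighbours and more long gaps than those of comparison bins. The longest distance between adjacent calls in read-poor bins was 18447 bp.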

How the data were processed

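The authors used MAQ to place the 36-bp MNase-seq reads on TIGR release 5 with at most 1 mismatch and kept unique positions. The deposited single-end positions pool 2 technical replicates. For the calls, the authors removed fragments over 200 bp, trimmed the others to 40 bp and ran nucleR. Each deposited call has a score, whose scale and threshold, like the version of MAQ and any filter on repeated reads, are not given in the sources used here. The other deposited list of calls held the same calls and was left out.

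Reads were reduced to 5' ends and counted per 10-kb bin, and calls were assigned by their centres (numpy 2.4.6, numba 0.67.0, pandas 2.3.3 and matplotlib 3.10.9 in Python 3.11.15). The counting was tested on simulated data. There, spacing in read-poor bins was checked only after division by the moving mean, with a tolerance of nearly the size of the difference reported. Spacing from the undivided counts of read-poor bins was not held to a limit. Named bins are the longest stretches overall and per chromosome, the bins with most and fewest calls, those beside the upper limit, and chromosomes at either end of a range. Bins above every comparison score, windows of 1 Mb and chromosome ends were named after their values were seen. The bins and all measures were chosen with earlier results of these data known. Genes were not placed, since the gene table given is of another build (ASM3414082v1). Precision is limited by 1 biological replicate per form and by the few reads per bin. Intervals from counts cover counting error only.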

Additional observations from a re-analysis of the deposited data

How the results depend on the processing

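Of 48 other settings, 35 stayed within 1 SD over chromosomes of the value reported, 12 moved further and 1 difference changed sign. A further 6, chosen after seeing the data, stayed within it. Changes of sign were counted only for the ratio of calls and the difference in score. Some of the 35 could not move, such as a change of comparison bins for the shares of read-free windows and of repeated reads. Counting repeated reads once likewise could not change the share of calls without a read. A limit of 78 reads gave 2.49% and a doubled limit 10.3% of the bins in place of 5.01%, and bins of 20 kb with the doubled limit gave 2.77%. The share of read-free windows was 63.6% with windows of 200 bp, 24.4% with windows of 1000 bp and 53.1% with at most 78 reads, in place of 41.1%. Calls without a read made up 88.6% with at most 78 reads and 72.3% within 40 bp, in place of 81.5%. Repeated reads were 13.7% in read-poor bins with at most 78 reads, in place of 14.5%, against 13.9% in comparison bins, so that the direction turned. It also turned for the protected length with repeated reads counted once, which was 147 bp in read-poor and 148 bp in comparison bins, within the SD over chromosomes. Distances between adjacent calls were 124 bp in read-poor and 134 bp in comparison bins when distances of 100 to 300 bp were taken, 167 and 169 bp among calls without overlap, and 172 and 175 bp in the upper 50% of scores. The difference in score reversed to -0.0347 among calls without overlap. The cause of these moves was not tested beyond the change in the definition itself. The ratio of calls was 0.931 to 0.970 and spacing in read-poor bins 166 to 175 bp under the settings run. Another background for the distances was not run, since it scales all of them alike and cannot move a maximum. No paired analysis was possible because no replicate number occurs in both libraries and no result comes from a test, and no replicate could be left out. Values on single chromosomes rest on few reads, most of all the protected length.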

Other observations

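The 10 windows of 1 Mb with 20 or more read-poor bins lay on chromosomes 1, 4, 5, 6, 8, 10 and 12, and chromosome 5 had 3 of them, at 9 to 12 Mb, with 23, 23 and 27 read-poor bins of 100 each. The 42 read-poor bins within 100 kb of a chromosome end had 93.1 calls on average, compared with 85.2 to 87.6 at the larger distances. Among them, the 4 bins at the start of chromosome 6 had 130 calls on average, and the 6 bins at the end of chromosome 9 had 73.7.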
